A study of Homo sapiens with 12 samples.

Results

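The vault RNA and Y RNA genes are 8 short human genes transcribed by RNA polymerase III: the vault RNA genes VTRNA1-1, VTRNA1-2, VTRNA1-3 and VTRNA2-1 and the Y RNA genes RNY1, RNY3, RNY4 and RNY5. They were taken by name from 59679 RefSeq genes on chromosomes 1 to 22, X and Y, among 1945 small RNA genes with miRNA genes left out. A region counted for a gene when it overlapped the gene's RefSeq span by at least 1 base. By this rule 6 of 2921 regions in the 5xA list and 5 of 1190 regions in the WT list lay on these genes.

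The regions come from eCLIP, in which RNA is crosslinked to a protein by ultraviolet light, the protein is precipitated and the RNA fragments that come with it are sequenced. The precipitated protein was AGO2, the Argonaute protein that uses miRNAs to find target RNAs, in HCT116, an established human colorectal carcinoma line. The groups were an anti-FLAG precipitate from cells of genotype FH-AGO2_5xA (2 samples, 1 pooled region list) and one from cells of genotype FH-AGO2_WT (2 samples, 1 pooled region list). In 5xA a cluster of phosphorylated AGO2 residues is replaced by alanine. Cells of both genotypes were grown for 48 h and crosslinked at 400 mJ/cm2, with no drug treatment given in the labels. The labels do not say which promoter drives the tagged proteins, whether a line is 1 clone, or whether untagged AGO2 is present. The inputs and the AGO2_KO samples, 8 of 12 in all, were not analysed here.

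Vault RNAs were first found in the vault, a large barrel-shaped particle of the cytoplasm built mainly from the major vault protein MVP. VTRNA2-1, also called nc886 and once listed as the miRNA precursor pre-miR-886, is not a stable part of that particle and is known as an inhibitor of the kinase PKR. Y RNAs fold into a stem and loop, bind the ring-shaped protein Ro60 (RO60) and the La protein (SSB), and have been linked to DNA replication and RNA quality control. Fragments cut from vault RNA by Dicer have been reported to associate with Argonaute proteins.

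Both lists came without scores that differ and without read counts, so a region records that crosslinked reads passed the authors' calling, not how many. The depth behind each list is unknown, 1 list per genotype leaves no replicate error, and no test between the genotypes was possible. The RNA amounts in the inputs were not analysed here, so more RNA and more binding per RNA cannot be told apart. The list lengths differ, and any region found in the 5xA list alone cannot be told apart from a difference in depth or calling threshold. Region lists give no expression levels, so the cell type could be checked only by presence: 2 of 15 colorectal epithelial marker genes held a 5xA region and 1 of 15 a WT region, 1 of 6 fibroblast genes (COL1A1) did in both lists, and 0 of 5 blood cell genes did in either. The share of all protein-coding genes with a region was 7.71% in the 5xA list and 3.45% in the WT list.

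The first bases of VTRNA1-1 are shown because every region on the VTRNA1 genes began 1 base before the annotated RNA, in both lists. The sequence is that of LOC105378198, a lncRNA annotated from the same first base of the plus strand, from RefSeq on GRCh38.p14, at chr5:140711266-140711325. It runs from 10 bases before that shared start to base 50 of the RNA, and the 51 capitals are the bases inside both the 5xA and the WT region.
LOC105378198: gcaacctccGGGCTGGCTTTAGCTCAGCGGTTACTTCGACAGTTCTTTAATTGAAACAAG
Vault RNA genes carry their promoter inside the RNA, as tRNA genes do. The core letters of its upstream element, the A box, searched as GCNNAGNNG on both strands, occurred once on the shown strand, at bases 12 to 20, and 0 times on the other. The same letters were present in 18.7% of 35116 RefSeq promoter entries over the first 50 bases after the start. The regions thus covered RNA that also holds these promoter letters, which says nothing about a factor bound there.

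All 4 vault RNA genes held 1 region in the 5xA list and 1 in the WT list, and each of these overlapped its counterpart. The sequences of the vault RNA genes were not compared with one another, and the treatment of reads with several possible places is unknown. Their regions may therefore not be separate observations. Of the Y RNA genes, RNY4 held a region in both lists, RNY3 held 1 in the 5xA list only, and RNY1 and RNY5 held none. In all 6 of 8 genes had a 5xA region and 5 of 8 a WT region. Over the 1945 small RNA genes the share with a region was 2.11% in the 5xA list and 1.03% in the WT list, and over all RefSeq genes it was 3.04% and 1.38%. Of the regions on the 8 genes, 5 of 6 in the 5xA list and 5 of 5 in the WT list were shared, meaning that they overlapped a region of the other list on the same strand. Over the whole lists 32.3% of 5xA regions and 81.3% of WT regions were shared.

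**Figure D1:**
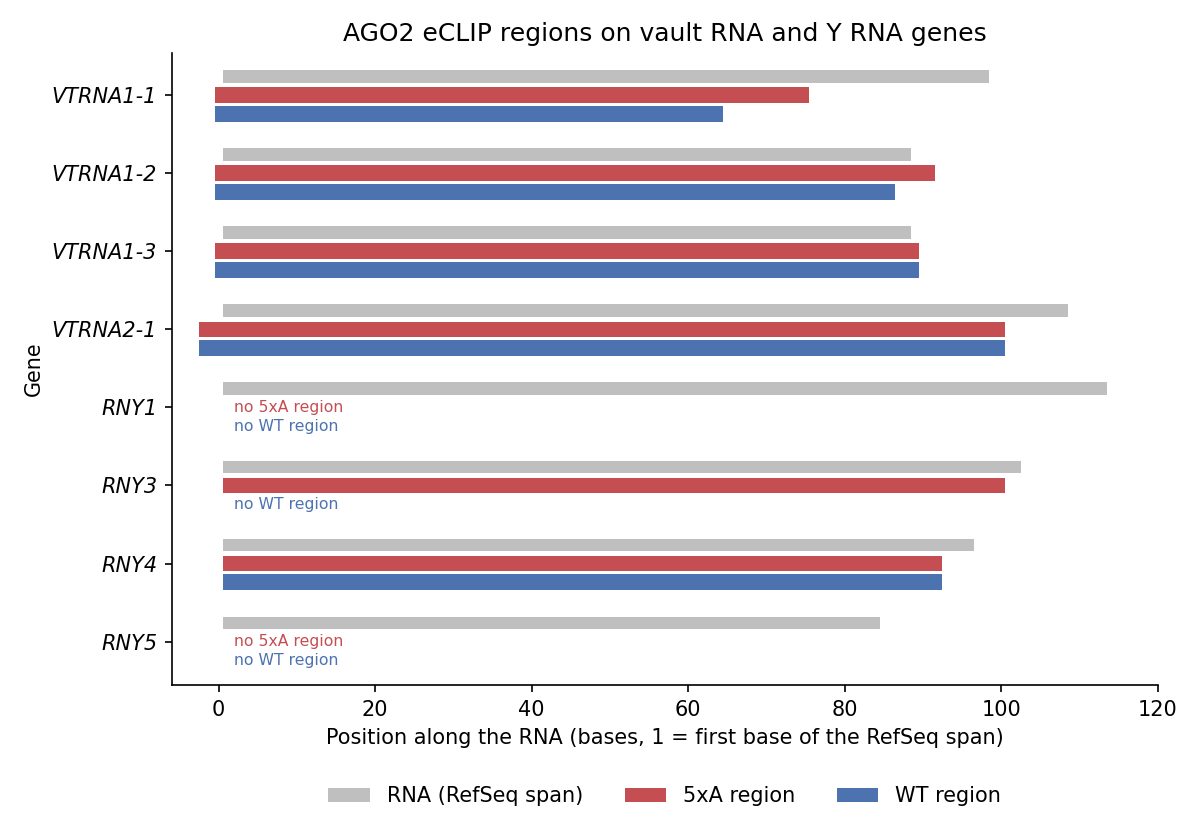
Regions along each RNA, in bases from the first base of the RefSeq span read along the region's strand, with the RNA in grey, the 5xA region in red and the WT region in blue. All regions, 6 with 5xA and 5 with WT, start within 3 bases of the RNA's first base, VTRNA1-1 is the only one left with more than 8 bases uncovered at its 3' end, and RNY1 and RNY5 carry no region.

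VTRNA1-1, the vault RNA known to restrain autophagy through the receptor p62, lies at chr5:140711276-140711373 and is 98 bases long. Its 5xA region, chr5:140711275-140711350 on the plus strand, was 76 bases wide and covered bases 1 to 75 of the RNA, 76.5% of it. Its WT region, chr5:140711275-140711339, was 65 bases wide and covered bases 1 to 64, or 65.3%. Both regions thus took the 5' part of the RNA and left its 3' end bare, 23 bases in the 5xA list and 34 in the WT list. The 5xA region reached 11 bases further, the largest difference among the 5 genes with a region in both lists. Of the 1190 WT regions, 5 were narrower than the 65-base region of VTRNA1-1, and the narrowest was 63 bases wide. This WT region thus lay near the lower limit of width in its list, and whether that set its 3' end was not tested. Of the 2921 5xA regions, 652 were narrower than the 5xA region of VTRNA1-1.

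VTRNA1-2, at chr5:140718926-140719013, and VTRNA1-3, at chr5:140726159-140726246, are 88 bases long each and were covered nearly from end to end. The 5xA region of VTRNA1-2 was 92 bases wide and took in all 88 bases of the RNA and 3 bases beyond its 3' end. The WT region of VTRNA1-2 was 87 bases wide and stopped at base 86, 2 bases before the 3' end. On VTRNA1-3 the 2 lists gave the same region, chr5:140726158-140726247, 90 bases wide and 1 base longer than the RNA on either side. The regions of the VTRNA1 genes began alike and differed among themselves at the 3' end, where VTRNA1-1 had 23 bases (5xA) and 34 bases (WT) uncovered, VTRNA1-2 had 0 and 2, and VTRNA1-3 had 0 and 0.

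The VTRNA1 genes lie 7650 and 7233 bases apart, start to start, all within the span of LOC105378198, whose plus strand is also the strand of the regions. Vault RNA and this lncRNA cannot be told apart by position alone. Between the first and the last VTRNA1 gene, over 14971 bases, 0 regions of either list lay outside the vault RNA genes. The nearest region beyond this stretch was 143.8 kb away in the 5xA list, at SLC35A4, and 1585.7 kb away in the WT list, at SPRY4. On this stretch, regions were thus present at the vault RNA genes and nowhere else. Only gene spans were used, without the exons of the lncRNA, so the bases without a region do not tell the lncRNA and vault RNA apart.

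VTRNA2-1, at chr5:136080491-136080598, is 108 bases long and had the widest regions of the 8 genes. The 2 lists gave the same one, chr5:136080499-136080601 on the minus strand, 103 bases wide. It began 3 bases before the RNA and ended at base 100, so that 8 bases at the 3' end stayed uncovered and 92.6% of the RNA was covered. No other gene span overlapped it, and the nearest region of another gene was 1672.1 kb away in the 5xA list (HNRNPA0) and 2107.8 kb in the WT list (VDAC1).

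RNY4, one of the Ro60-bound Y RNAs, is the Y RNA gene with a region in both lists. It lies at chr7:148963315-148963410 and is 96 bases long. In both lists its region was chr7:148963315-148963406 on the plus strand, 92 bases wide, from the first base of the RNA to base 92, which covers 95.8% of it. RNY3, which is 102 bases long at chr7:148983755-148983856, had the region chr7:148983755-148983854 in the 5xA list, 100 bases wide. That region began at the first base and left 2 bases at the 3' end, a coverage of 98.0%. The WT list held none there, and its nearest region lay 20348 bases from RNY3, on RNY4. By width the RNY3 region stood near the middle of its list, with 1343 of 2921 5xA regions narrower.

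RNY1 and RNY5, the longest and the shortest of the 8 RNAs at 113 and 84 bases, had no region in either list. RNY1 lies at chr7:148987136-148987248, and the nearest 5xA region was that on RNY3, 3281 bases away, while the nearest WT region was that on RNY4, 23729 bases away. RNY5 lies at chr7:148941488-148941571, and the nearest region in each list was that on RNY4, 21743 bases away. The 4 Y RNA genes span 45761 bases together, and this stretch held 2 regions in the 5xA list and 1 in the WT list, all on Y RNA genes. Outside it the nearest region was 238.4 kb away in both lists, at ZNF282. A missing region is not evidence that an RNA is unbound, since the depth and the calling threshold are unknown.

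Counted in bases, 5xA regions covered 543 and WT regions 430 of the 777 bases of the 8 genes. Most of this gap was the RNY3 region, and on the 5 genes with a region in both lists, 5xA regions covered 443 and WT regions 430 of 478 bases. Vault RNAs had 351 of 382 bases covered in the 5xA list and 338 in the WT list, while Y RNAs had 192 and 92 of 395. Among genes with a region, the median part covered was 96.9% in the 5xA list (6 genes, the lowest 76.5%) and 95.8% in the WT list (5 genes, the lowest 65.3%). At least 90% of the RNA was covered in 5 of 6 genes with 5xA and 4 of 5 with WT.

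Other small RNA genes with a region were set beside these as a description. The snaR-A genes, a family of near-identical short RNAs of RNA polymerase III, held a region in 14 of 14 copies in the 5xA list and 13 of 14 in the WT list. Reads of near-identical copies may be hard to place, so these copies may not be separate observations. They were 14 of the 35 other small RNA genes with a 5xA region and 13 of the 15 with a WT region. Their median coverage was 75.7% in the 5xA list and 81.0% in the WT list, and 0 of 14 and 1 of 13 reached 90%. The tRNA genes had a median of 91.5% in the 5xA list over 15 genes of 443, and 90.9% in the WT list over 2 genes. Of the 15, 4 lay under a single region of 6057 bases and 2 under one of 1440 bases, so their coverage follows from the width of those regions. In the 5xA list 4 snoRNA genes of 1199 had a region, with a median coverage of 91.0%. In the 5xA list, regions began within 3 bases of the annotated 5' end in 6 of 6 vault and Y RNA genes and 18 of 35 other small RNA genes. In the WT list they did so in 5 of 5 and 12 of 15. Among the others, snaR-A genes had such a start in 12 of 14 with 5xA and 12 of 13 with WT. The tRNA genes had it in 4 of 15 and 0 of 2. A start near the 5' end was thus common on snaR-A genes too. The median coverage of vault and Y RNA genes lay above that of snaR-A and tRNA genes in both lists and of snoRNA genes with 5xA. These differences were not tested. The percent also depends on the annotated length, which was 121 or 122 bases for snaR-A genes and 88 to 108 for vault and Y RNA genes with a region. In bases, snaR-A regions were about as wide: 71 to 101 against 76 to 103 with 5xA, and 83 to 112 against 65 to 103 with WT.

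**Figure D2:**
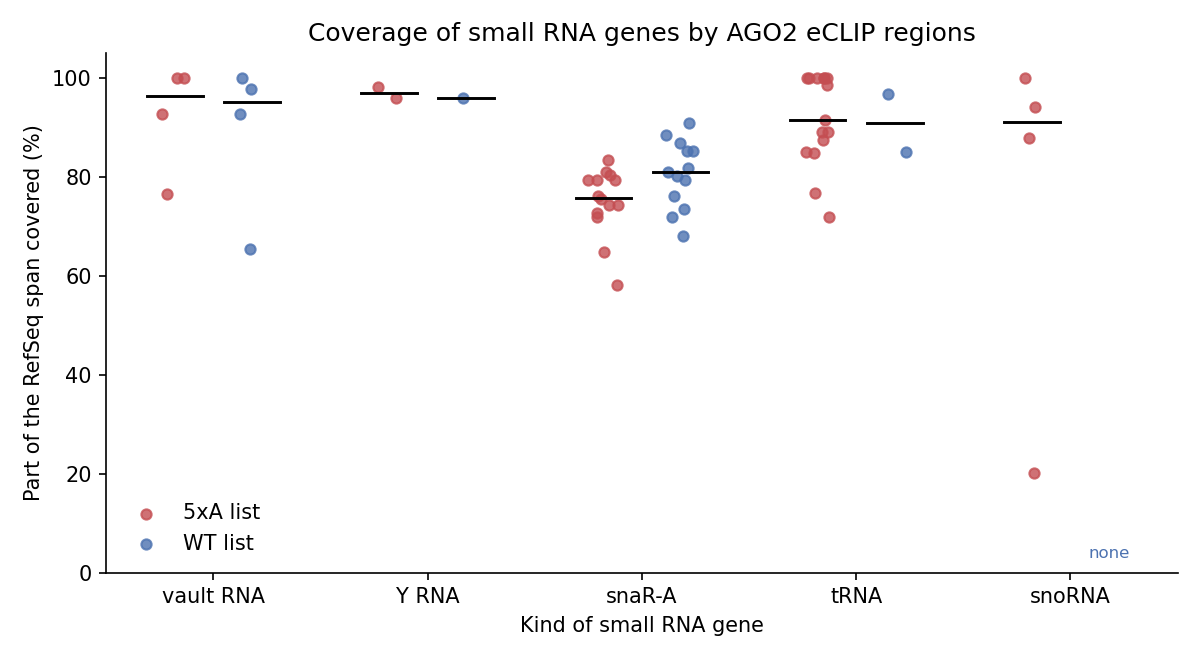
Part of the RefSeq span (%) covered by each region, 1 point per gene and region, with the 5xA list in red, the WT list in blue and the median as a black bar. Vault and Y RNA genes lie above 90% except VTRNA1-1 (76.5% with 5xA, 65.3% with WT), snaR-A genes have medians of 75.7% and 81.0%, and no snoRNA gene has a WT region.

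The ends of the regions could be compared where a 5xA and a WT region overlapped one another alone, which gave 847 pairs, 5 of them on vault and Y RNA genes. All 5 of these pairs had the same 5' end in both lists, against 9.56% of all pairs. These 5 RNAs are 88 to 108 bases long, and a short RNA limits where a region can begin and end. Of the 847 pairs, 807 lay outside miRNA and other small RNA genes, so the share over all pairs is not a like background. How far RNA length accounts for the agreement was not tested. Among pairs on other short RNAs, 14 of 19 on miRNA genes and 3 of 13 on snaR-A genes did. The 3' end was the same in 3 of 5, at VTRNA1-3, VTRNA2-1 and RNY4, against 7.32% of all pairs. It was the same in 9 of 19 pairs on miRNA genes and 1 of 13 on snaR-A genes. Both ends were the same in the pairs at VTRNA1-3, VTRNA2-1 and RNY4, and in 1.65% (14) of all 847. The 5xA region was the wider in the remaining 2 pairs on vault and Y RNA genes, by 11 bases at VTRNA1-1 and by 5 bases at VTRNA1-2. The WT region was the wider in 0.

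The 14 pairs with both ends in common lay mostly on short RNAs. Beside the 3 on vault and Y RNA genes, 7 lay on miRNA genes (of 19 pairs), 1 on another small RNA gene (of 3), 0 on snaR-A genes (of 13) and 3 among the 807 pairs elsewhere. Outside vault and Y RNA genes these pairs were 65 to 70 bases wide, below the lower quartile of width in both lists (78 bases with 5xA, 87 with WT). The 3 on vault and Y RNA genes were 90 to 103 bases wide. In those 807 pairs the median distance between the ends of the 2 lists was 13 bases at the 5' end and 13 at the 3' end. On miRNA genes it was 0 bases at the 5' end and 1 at the 3' end, and on snaR-A genes 1 and 5. On vault and Y RNA genes it was 0 bases at both ends, from 5 pairs, and the difference from the other places was not tested.

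**Figure D3:**
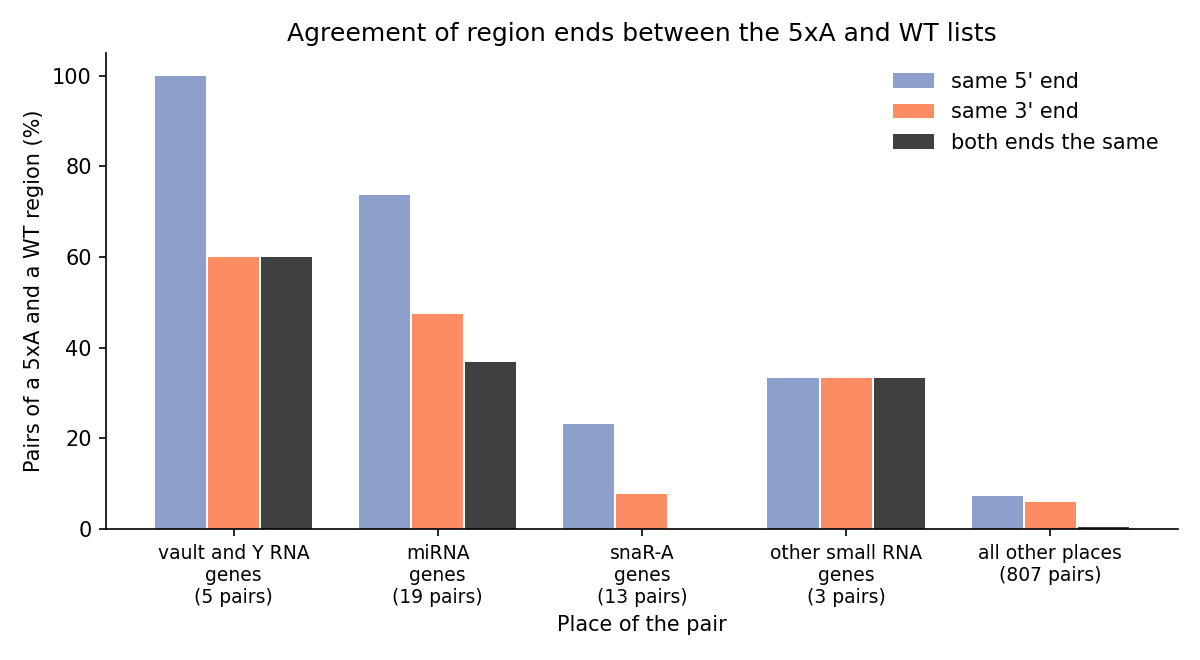
Share (%) of pairs of a 5xA and a WT region with the same 5' end (blue), the same 3' end (orange) or both ends the same (dark), by the place of the pair. On vault and Y RNA genes 5, 3 and 3 of 5 pairs do. On miRNA genes 14, 9 and 7 of 19 do, on snaR-A genes 3, 1 and 0 of 13, and outside miRNA and other small RNA genes 58, 48 and 3 of 807.

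Y RNA genes have many pseudogene copies in the human genome, and reads may be hard to place among them. RefSeq lists 75 Y RNA pseudogenes and 2 vault RNA pseudogenes, of which 2 and 0 held a region in the 5xA list and 0 and 0 in the WT list. Over all RefSeq pseudogenes the share was 0.289% in the 5xA list and 0.116% in the WT list. RNY3P1 (chr5:79170235-79170334) held a 5xA region of 81 bases on the minus strand, over bases 16 to 96 of its 100. RNY4P5 held one of 69 bases on the plus strand, over bases 23 to 91 of its 95. By parent gene, 1 of 16 RNY3, 1 of 33 RNY4, 0 of 16 RNY1 and 0 of 10 RNY5 pseudogenes held a 5xA region, counts too small to show a difference between parents. No source used here gives the treatment of reads with several possible places, and the sequences of these genes and copies were not compared. Whether reads of RNY3 and RNY4 were kept apart from those of their copies is therefore unknown.

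Other transcripts of RNA polymerase III outside the tRNA and snaR genes were counted in the same way. Of 29 such genes, among them RN7SK, RN7SL1, RMRP, RPPH1 and the U6 and 5S genes, 0 held a 5xA region and 1 (3.45%) held a WT region, beside 2.11% and 1.03% of all small RNA genes, so that with 29 genes neither count stands apart from these shares. The gene with a region was BCYRN1, an Alu-derived cytoplasmic RNA of neurons and tumours. RefSeq lists BCYRN1 as a lncRNA, so it lies outside the 1945 small RNA genes behind those shares. Its region of 79 bases on the plus strand began at the first base of the RNA and covered bases 1 to 79 of 200. It was not shared, and the span of EPCAM-DT lies there too. The U6 and 5S genes have near-identical copies, so their reads may have been split or dropped.

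Genes of proteins that bind or process vault and Y RNAs were counted by whole gene span, introns included and on either strand. A region counted here therefore need not lie on the mRNA. Of 26 genes, 8 held a 5xA region and 3 a WT region, the 3 being among the 8, beside the protein-coding shares of 7.71% and 3.45% given above. RO60, the gene of the Y RNA-binding protein Ro60, held 4 regions in the 5xA list and 1 in the WT list. Its WT region, chr1:193091380-193091528, ended 249 bases from the downstream gene end and overlapped 2 of the 5xA regions, chr1:193091419-193091509 and chr1:193091516-193091592. The other two 5xA regions of RO60 ended 530 and 4597 bases from that end and were not shared.

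DICER1, whose product has been reported to cut small RNAs from vault RNA, held 8 regions with 5xA and 4 with WT, and all 4 of the WT regions were shared. HNRNPK held 1 identical region in each list, of 66 bases, which lies on MIR7-1. The count of HNRNPK in both lists thus rests on a region at a miRNA gene. The genes with a 5xA region only held 1 each: TEP1, a protein of the vault particle (83 bases), SQSTM1, which encodes the autophagy receptor p62 (92 bases), SRSF2, a splicing factor reported to bind vault RNA (150 bases), the chaperone gene CALR (77 bases) and the helicase gene MOV10 (138 bases). These 5 regions ended 85 (MOV10) to 2403 (TEP1) bases from the downstream gene end. MVP, PARP4, SSB and NSUN2, the methyltransferase of vault RNAs, were among the 18 genes without a region.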

How the data were processed

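The 2 files analysed hold 1 list of eCLIP regions each, for the FH-AGO2_5xA and the FH-AGO2_WT precipitates. Both replicates of a genotype point to the same file in their descriptions, so a list pools 2 samples. The deposited files have 6 columns (chromosome, start, end, name, score, strand), and the deposited score is 0 in every row and was not used. Per the submitters' processing notes, the build was hg38 and the tools included TopHat2 and cutadapt 1.9.1. Libraries had 11 to 15 PCR cycles, per the labels' protocols. Not given in the sources used here are the peak caller, its threshold, the merging rule and the part played by input and knockout libraries.

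Gene spans came from RefSeq (GRCh38.p14), which shares chromosome coordinates with hg38. The table has no strand, so positions along an RNA follow the region's strand. Overlaps of 1 base or more were counted in Python 3.11.15 with pandas 2.3.3, checked against bedtools 2.31.1 and tested on simulated regions. No p-value was computed. Of the 8 genes, 0 had an entry in the sequence tables. The rule named all 8 genes, their pseudogenes with a region, and every gene with a region on 2 lists (RNA polymerase III transcripts, protein partners). The genes and lists were chosen with earlier results of these data known.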

Additional observations from a re-analysis of the deposited data

How the results depend on the processing

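The 14 alternatives for the numbers of genes with a region, of regions and of shared regions gave the same counts as reported. For overlap they required 50% of the RNA or 50% of the region, widened spans by 50 bases, or joined regions within 50 bases. For sharing they required a reciprocal overlap of 50%, ignored strand, or took regions within 50 bases as shared. The counts had little room to change, so their equality says little about stability. Each region covered at least 65.3% of its RNA, and the lowest part of a region inside a span was 95.7%. The nearest region to a gene without one lay 3281 bases away. Counting the genes without a region at 0, the median part of the RNA covered over all 8 genes was 94.2% in the 5xA list and 78.9% in the WT list, by construction lower than over the genes with a region. A setting that required the region on the strand of the gene was not run, since no table used here gives the strand of these genes. No paired analysis was possible because each list pools both replicates, and for the same reason no replicate could be left out. Depth behind the lists is unknown, so a missing region sets no limit on binding.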

Other observations

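Outside the miRNA, snaR-A, vault and Y RNA genes, 2 tRNA genes held regions in both lists. The lysine tRNA gene TRK-TTT3-4 had the same region in both lists, 66 bases wide, beginning 4 bases before the annotated RNA and ending at base 62 of 73. The isoleucine tRNA gene TRI-TAT2-3 had a 95-base region with 5xA, ending at base 86 of 94, and a 99-base region with WT, ending at base 91. The glycine tRNA gene TRG-CCC1-2 and the snoRNA gene SNORD19C had 5xA regions of 71 and 67 bases that matched the annotated RNA base for base, with no WT region. These values were chosen after they were seen and were not tested.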
